A study of Mus musculus with 4 samples.

Results

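The genes described here make prostaglandins and leukotrienes, the lipid mediators that cells derive from arachidonic acid. The 10 members were Pla2g4a, Ptgs1, Ptgs2, Ptges, Ptges2, Ptges3, Alox5, Alox5ap, Ltc4s and Alox15, of 21883 protein-coding genes placed on the chromosomes. They were chosen by name, and all peaks over the span of each gene and 10 kb on either side of it, called its window, were collected. That gave 91 of 103336 peaks with romidepsin and 14 of 16419 peaks without it.

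The peaks mark histone H3 acetylated at lysine 9 (H3K9ac), a modification found at active promoters and read here by chromatin immunoprecipitation and sequencing (ChIP-seq). The cells were mouse myeloid-derived suppressor cells (MDSC) grown from bone marrow and made senescent in vitro. The groups compared were CM plus romidepsin, a histone deacetylase inhibitor, and CM alone, so the CM condition, whose name the labels leave unexplained, was common to both. For dose, time, strain, age and the way senescence was induced, no details are given in the sources used here. A single immunoprecipitated library represented each condition, so no replicate error and no test accompany the values. Read depth is unknown, and more reads alone can give more and wider peaks. The whole romidepsin list covered 200.4 Mb with peaks of a median 957 bp, and the CM list 23.0 Mb with peaks of a median 1121 bp.

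Cytosolic phospholipase, encoded by Pla2g4a, frees arachidonic acid from membranes. The cyclooxygenases Ptgs1 and Ptgs2 turn it into prostaglandin H, from which the prostaglandin E synthases Ptges, Ptges2 and Ptges3 make prostaglandin E. The lipoxygenase Alox5, helped by its activating protein Alox5ap, turns it into leukotriene A instead, which Ltc4s joins to glutathione. Prostaglandin E is known as a mediator through which MDSC restrain T cells.

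H3K9ac peaks lay over all 10 gene windows with romidepsin and over 9 of 10 in CM, where Alox15 had none. Among all protein-coding genes, 72.2% had a romidepsin peak and 58.8% a CM peak in the same kind of window. The member windows were longer, with a median of 52350 bp against 37169 bp over all genes, and a longer window has more room for a peak. The romidepsin peaks covered 35.3% of the joined windows (201754 of 571125 bp) and the CM peaks 3.82% (21835 bp). Peaks over a member window had a median length of 1176 bp with romidepsin, with a range of 293 to 43695 bp, against 1572 bp and 271 to 4280 bp in CM. All 14 CM peaks over the windows overlapped a romidepsin peak, as did 16399 of the 16419 peaks in the whole CM list. Of the 14, 13 lay wholly inside one, a share not computed for the whole list. Of the 91 romidepsin peaks, 80 met no CM peak (87.9%). Over the whole romidepsin list this share was 87.1%, so the member windows lay near the background. Neighbouring peaks of 1 library are not independent, and after peaks closer than 1 kb were merged 43 of 53 met no CM peak. That share was not computed over the whole merged list, so 87.1% is no background for it.

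**Figure D1:**
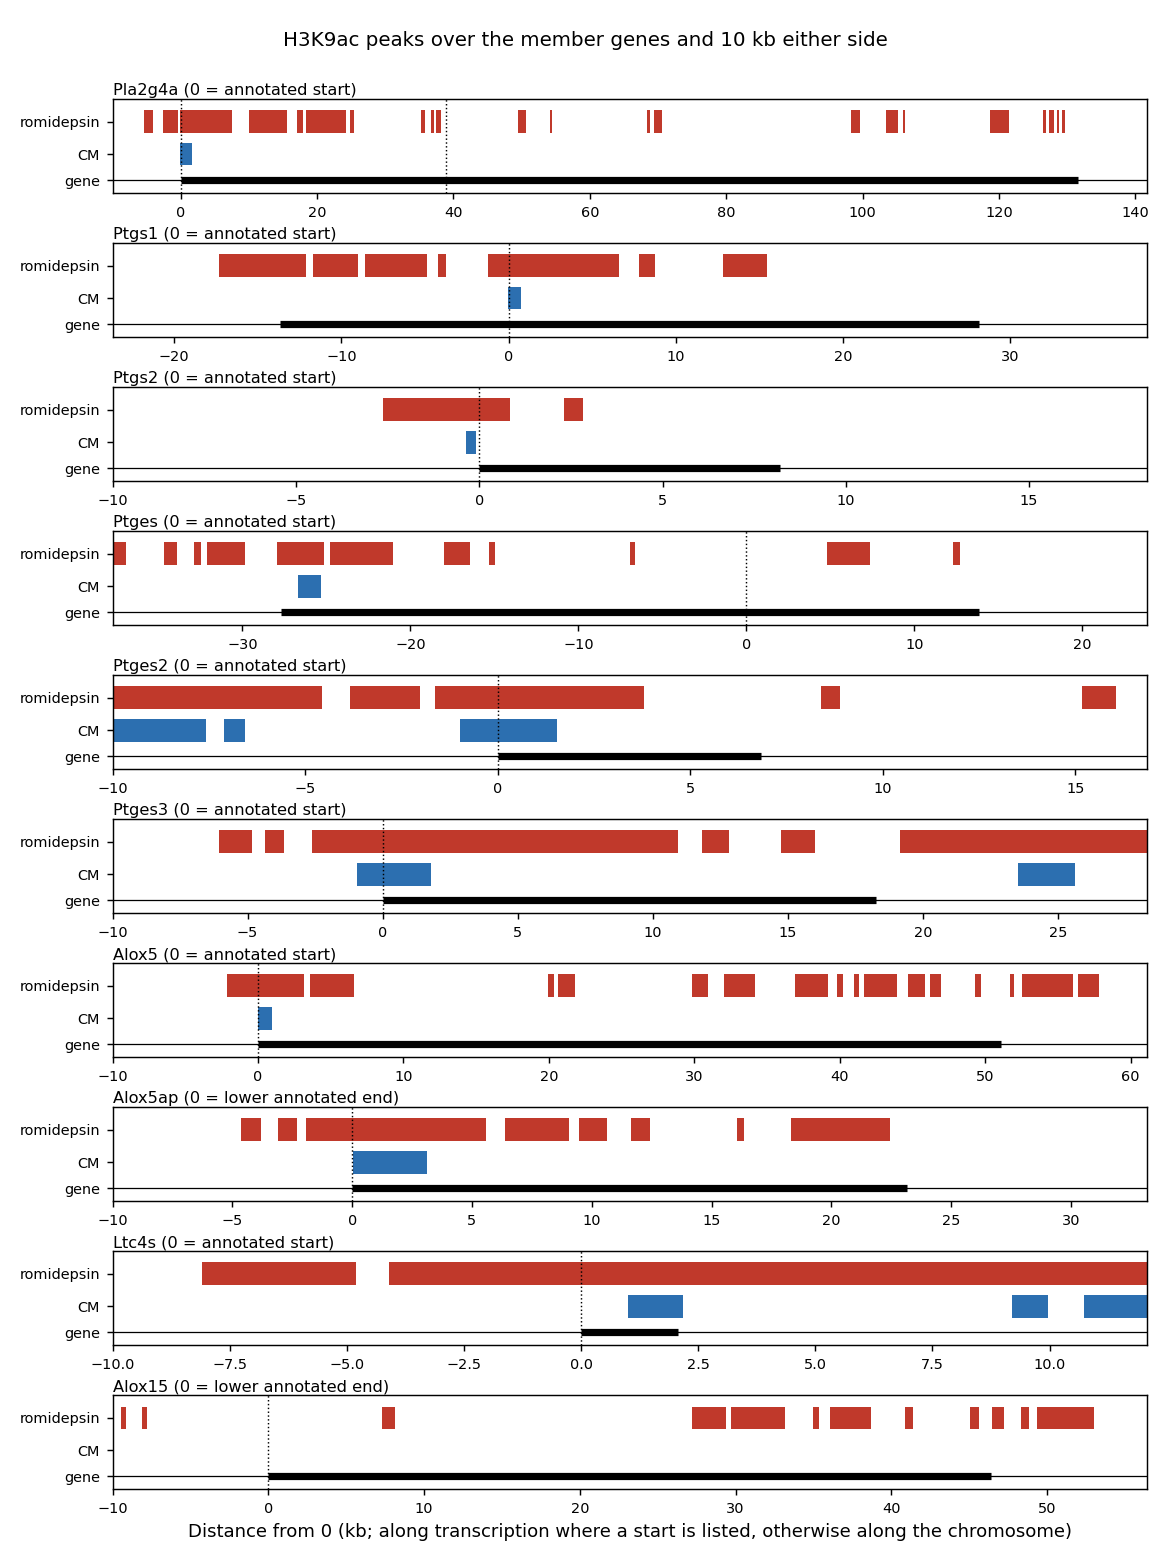
Position of every peak over the 10 gene windows, in kb from the annotated start along the direction of transcription, or from the lower annotated end for Alox5ap and Alox15. Red blocks are romidepsin peaks, blue blocks CM peaks, thick black lines the gene spans and dotted lines the annotated starts. Each member other than Alox15 has 1 CM block of its own, while romidepsin blocks are also spread along the genes.

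Coverage differed widely between members. By the share of its window under romidepsin peaks the order was Ltc4s (88.2%), Ptges3 (70.1%), Ptges2 (52.5%), Alox5ap (42.2%), Ptgs1 (38.1%), Alox5 (36.6%), Ptges (26.1%), Alox15 (24.6%), Pla2g4a (24.5%) and Ptgs2 (14.0%). The CM share was 20.5% at Ptges2, 14.8% at Ltc4s, 12.7% at Ptges3 and 7.13% at Alox5ap, and between 0 and 2.18% at the other 6. The 4 members with the highest coverage were thus the same in both lists, and 3 of them shared their window with peaks of a neighbouring gene. The members' median was 37.3% with romidepsin and 1.76% in CM, against 12.0% and 1.46% over all genes. All 10 members exceeded the all-gene median with romidepsin and 5 of 10 did in CM, against 50.0% of all genes by construction. Among the 12876 genes with a CM peak in the window the medians were 30.8% with romidepsin (interquartile range 14.4 to 54.2) and 4.47% in CM (2.21 to 8.78). Of the 9 members with a CM peak, 6 were above the first of these medians and 4 above the second.

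**Figure D2:**
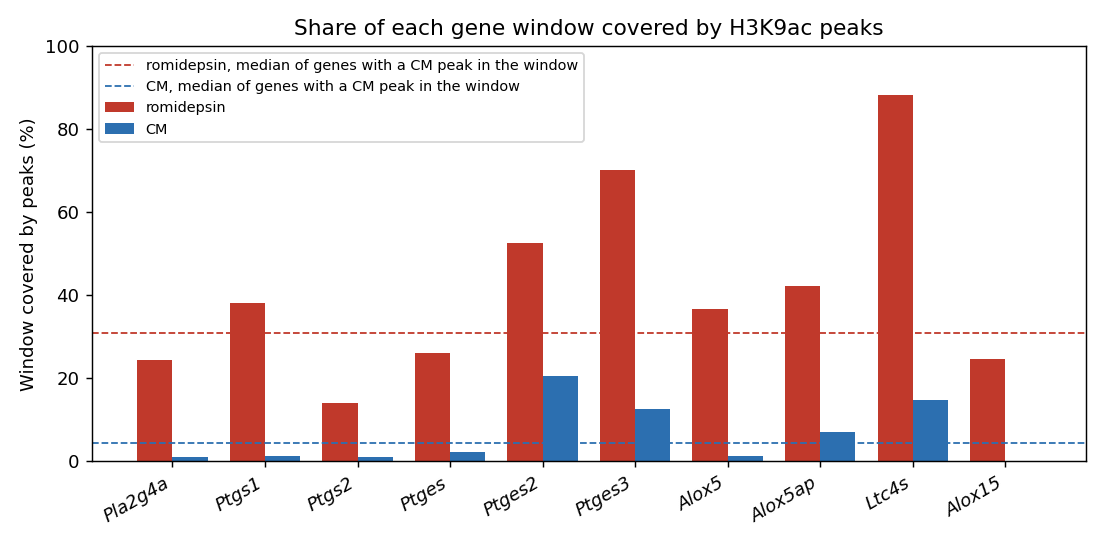
Share of each gene window covered by peaks, in percent, with red bars for romidepsin and blue bars for CM. Dashed lines give the medians over the 12876 genes with a CM peak in the window (30.8% with romidepsin and 4.47% in CM). Ltc4s, Ptges3 and Ptges2 stand highest with romidepsin, and Ptgs2 lowest at 14.0%.

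H3K9ac is known to sit around gene starts. The RefSeq promoter table (GRCm38.p6, the assembly behind mm10) lists a start for 8 of the 10 members, not for Alox5ap and Alox15. A peak lay within 1 kb of the start in 7 of 8 members with romidepsin and in 6 of 8 in CM. The background was 63.1% of 17491 genes with romidepsin and 51.4% in CM. Ltc4s had such a peak with romidepsin only, as did 11.8% of all genes, and Ptges had none in either list, as did 36.9%. The start peaks had a median length of 7666 bp with romidepsin (7 genes) and 1377 bp in CM (6 genes), against 4653 and 1602 bp over all genes with one. At annotated gene ends, read for all 10 members and added after the data were seen, a peak within 1 kb of either end was present in 10 of 10 members with romidepsin (63.8% of all genes) and 7 of 10 in CM (48.8%). The start peaks' median fold enrichment over background, as given by the authors' peak caller for its own list, was 3.85 with romidepsin and 4.87 in CM, against 3.86 and 5.80 over all genes. The 2 lists rest on different backgrounds, so a pair of folds measures no gain or loss of H3K9ac.

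**Figure D3:**
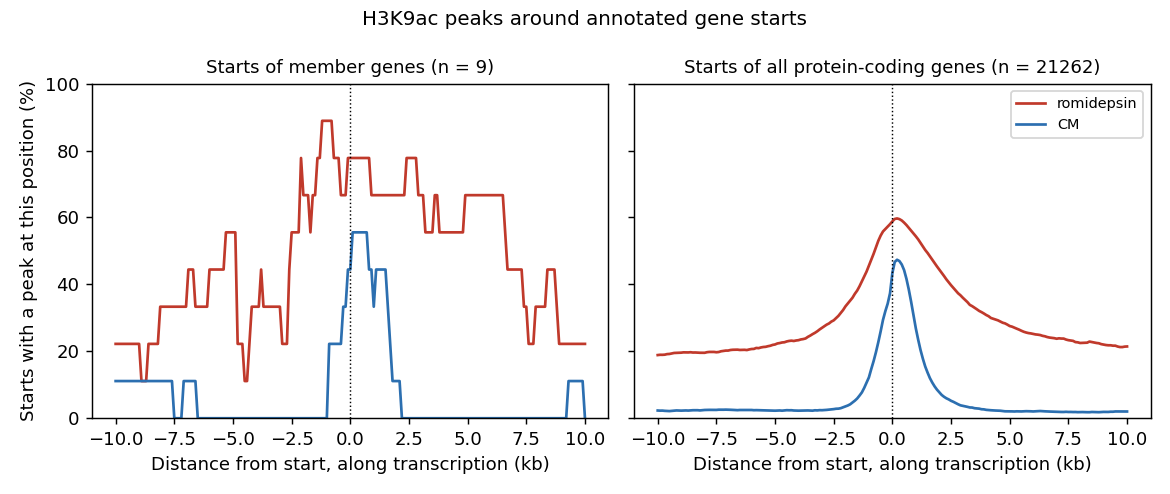
Share of starts with a peak at each position, in percent, against the distance from the start in kb along transcription, for the 9 starts of 8 member genes (left) and all 21262 starts of protein-coding genes (right). Red lines are romidepsin and blue lines CM. With 9 member starts each step is 1 start. The romidepsin line at member starts is jagged, at 66.7% 5 kb downstream and between 55.6% and 11.1% around 5 kb upstream, where it dips below the line of all starts.

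Coverage away from the start was read at single positions, which do not show whether a peak there reached the start. The 8 members have 9 listed starts, since Pla2g4a has 2. Positions are in bases along transcription with the start as 0. At the start itself 77.8% of the member starts lay under a romidepsin peak and 44.4% under a CM peak, against 58.8% and 43.4% of all starts. At 5 kb downstream these shares were 66.7% with romidepsin and 0% in CM at the member starts, and 27.6% and 2.08% at all starts. At Alox5 and Ptges the romidepsin peak there was a separate one, from +3562 to +6581 and from +4817 to +7376. At Ltc4s the position lay past the end of the gene, in the 43695 bp peak that also covered neighbouring genes. Upstream, single positions changed over short distances with so few starts. At −1000 the shares were 88.9% with romidepsin and 0% in CM at the member starts, and 45.6% and 12.2% at all starts. At −900 they were 88.9% and 22.2% at the member starts, and 47.4% and 14.7% at all starts, so the CM share at the members changed from below to above that of all starts. With romidepsin 55.6% of the member starts lay under a peak at −5000 but 11.1% at −4500, where all starts stood at 23.0%.

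The 250 bases before a start are shown for 4 members whose CM peaks meet them differently, read from the RefSeq promoter table of GRCm38.p6, 5′ to 3′ on the strand of the gene. Capitals mark bases under a CM peak. The stretches are chr1:150099781-150100030 (plus strand) for Ptgs2, chr10:128058732-128058981 (plus) for Ptges3, chr6:116461179-116461428 (minus) for Alox5 and chr1:149961291-149961540 (minus) for Pla2g4a.
Ptgs2: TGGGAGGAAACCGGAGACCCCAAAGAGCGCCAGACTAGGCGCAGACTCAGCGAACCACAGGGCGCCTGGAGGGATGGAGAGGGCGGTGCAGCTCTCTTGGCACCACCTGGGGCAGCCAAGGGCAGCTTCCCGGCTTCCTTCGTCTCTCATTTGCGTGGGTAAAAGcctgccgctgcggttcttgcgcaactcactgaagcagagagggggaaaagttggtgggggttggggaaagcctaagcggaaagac
Ptges3: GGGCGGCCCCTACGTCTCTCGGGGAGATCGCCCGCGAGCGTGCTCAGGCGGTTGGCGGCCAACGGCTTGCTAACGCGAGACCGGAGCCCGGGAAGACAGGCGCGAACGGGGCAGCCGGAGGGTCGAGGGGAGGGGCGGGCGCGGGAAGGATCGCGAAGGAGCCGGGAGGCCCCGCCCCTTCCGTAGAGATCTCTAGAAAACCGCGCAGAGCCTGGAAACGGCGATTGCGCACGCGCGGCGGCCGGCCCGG
Alox5: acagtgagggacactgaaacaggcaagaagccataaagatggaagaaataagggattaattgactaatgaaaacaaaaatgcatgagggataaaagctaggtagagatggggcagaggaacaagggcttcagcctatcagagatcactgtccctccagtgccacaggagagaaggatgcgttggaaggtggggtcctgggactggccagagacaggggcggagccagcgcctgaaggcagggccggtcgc
Pla2g4a: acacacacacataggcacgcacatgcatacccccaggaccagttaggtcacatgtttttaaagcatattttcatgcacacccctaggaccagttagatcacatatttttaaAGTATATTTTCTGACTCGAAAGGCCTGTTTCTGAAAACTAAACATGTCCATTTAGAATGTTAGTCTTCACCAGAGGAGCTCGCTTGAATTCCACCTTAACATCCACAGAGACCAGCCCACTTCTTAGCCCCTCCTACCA
The CM peak took in 165 of these bases at Ptgs2, all 250 at Ptges3, none at Alox5 and 139 at Pla2g4a. The romidepsin peak took in all 250 at Ptgs2, Ptges3 and Alox5, and 106 at Pla2g4a. Chromatin was sheared to about 0.5 to 2 kbp, so peak edges are not known to the base. The stretches held 13 CpG dinucleotides at Ptgs2, 38 at Ptges3, 5 at Alox5 and 3 at Pla2g4a. Over all starts the median was 17 where both lists had a peak within 1 kb, 6 where romidepsin alone had one and 3 where neither had. Ptges3, the most CpG-rich member by this count, also had the start peak with the highest CM fold of the members. Alox5, Pla2g4a and Ptgs1, which held 5 CpG, had a start peak in both lists at a CpG count below the lower quartile (11) of such starts.

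Letters that match known factor motifs were searched in the same 250 bases on both strands. GGGCGG, the GC box bound by the Sp1 family, was found before the listed start of Ptgs2, Ptges, Ptges3 and Alox5, thus in 4 of 8 members, and in 42.6% of all 21262 promoters. The kappaB motif of NF-kappaB was found at Ptges3 alone, from −87 to −78, where it overlapped a GC box, and in 7.91% of all promoters. TGACG, the core of the cAMP response element, and TGANTCA, the AP-1 motif, were in no member stretch and in 20.2% and 6.13% of all promoters. TATAAA lay only before the inner start of Pla2g4a, and in 11.6% of all promoters.

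Pla2g4a, which encodes the phospholipase, lies on chromosome 1 (149829618 to 149961290, minus strand) and is the longest member at 131673 bp. With romidepsin 22 peaks lay over its window, of 295 to 7666 bp, and in CM 1 peak of 1804 bp. Both lists marked the outer start: the romidepsin peak reached from −106 to +7559 (fold 3.81, −log10 q 5.95), and the CM peak from −139 to +1664 (fold 4.75, −log10 q 3.63). This was the single CM peak over a member window that was not wholly inside a romidepsin peak, by 33 bases on the upstream side. A second romidepsin peak of 2115 bp lay from −2550 to −436, where CM had none. The inner start lay under no peak in either list. A romidepsin peak of 725 bp lay from −1434 to −710 relative to it (149923149 to 149923873, fold 3.71, higher than 91.1% of its list), with no CM peak there.

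The cyclooxygenase genes differed in how far the mark extended. Ptgs1, the constitutive enzyme, lies on chromosome 2 (36216742 to 36258593) and has its listed start at 36230426, inside this span. Its start carried a romidepsin peak of 7814 bp, from −1212 to +6601 (fold 3.44, −log10 q 4.66), and a CM peak of 768 bp, from −17 to +750 (fold 4.99, −log10 q 4.05). The 6 other romidepsin peaks met no CM peak, and 4 of them lay upstream of the listed start. The strongest of these covered the lower end of the annotated span (36213106 to 36218322, 5217 bp, fold 3.73), where CM had no peak.

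Ptgs2, the inducible cyclooxygenase, lies on chromosome 1 (150100031 to 150108234) and had the least coverage of the members with romidepsin. A romidepsin peak of 3446 bp ran from −2617 to +828 (fold 3.59, −log10 q 5.34), and a CM peak of 271 bp from −356 to −86 (fold 3.83, −log10 q 1.93). That CM peak was the shortest over any member window. Its length exceeded that of 0.557% of the CM list and its fold that of 18.4%, whereas the romidepsin peak stood above 85.2% and 89.2% of its own list. A position in one list is no measure of change, because the lists differ in number. Past the start the gene carried 1 further romidepsin peak of 510 bp (fold 2.33) and no CM peak. The RefSeq span of the long non-coding RNA gene Ptgs2os (150074873 to 150099874) ended inside both the romidepsin and the CM peak, so neither peak can be assigned to Ptgs2 alone.

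The prostaglandin E synthase genes differed from each other in coverage, with 26.1% at Ptges, 52.5% at Ptges2 and 70.1% at Ptges3 under romidepsin peaks and 2.18%, 20.5% and 12.7% under CM peaks. Ptges3 encodes the cytosolic synthase, also known as the co-chaperone p23, and lies on chromosome 10 (128058982 to 128077254). Its start peak was 13533 bp long with romidepsin, from −2611 to +10921 (fold 4.09, −log10 q 7.14), and 2730 bp in CM, from −939 to +1790 (fold 6.88, −log10 q 7.54). The CM fold exceeded that of 92.9% of the CM list, the highest among the members. The window also took in part of a romidepsin peak of 26369 bp that covered Atp5b and Baz2a, and a CM peak of 2121 bp at Atp5b.

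Ptges2 encodes a membrane-associated synthase (chromosome 2, 32395890 to 32402740). Its start peak was 5423 bp long with romidepsin, from −1633 to +3789 (fold 4.30, −log10 q 7.80) and 2523 bp in CM, from −971 to +1551 (fold 5.70, −log10 q 5.25), a ratio of 2.15. The romidepsin fold, above 98.1% of that list, was the highest over any member window. The remaining coverage came largely from a neighbouring romidepsin peak of 12562 bp over 1110008P14Rik and the lipocalin gene Lcn2, which covered the CM peaks of 2837 and 546 bp.

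Ptges, the inducible microsomal synthase (chromosome 2, 30889471 to 30931020, minus strand), stood apart from these. Within 1 kb of its listed start at 30903297 there was no peak in either list. Both lists instead marked the far upstream part of the annotated span, with a romidepsin peak of 2824 bp (30928436 to 30931259, fold 3.65, −log10 q 5.50) over a CM peak of 1340 bp (30928617 to 30929956, fold 5.04, −log10 q 3.98). The CM peak lay from −26659 to −25320 relative to the listed start, near the outer end of the span. Of the 11 romidepsin peaks in the window, 10 met no CM peak.

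The leukotriene genes all carried a CM peak, each inside a longer romidepsin peak. At Alox5 (chromosome 6, 116410071 to 116461178, minus strand), which encodes the enzyme of the first leukotriene step, the romidepsin peak at the start was 5337 bp long, from −2158 to +3178 (fold 3.85, −log10 q 6.13). The CM peak was 950 bp long and lay wholly downstream, from +13 to +962 (fold 4.49, −log10 q 3.06). The 15 further romidepsin peaks, of 293 to 3536 bp, had no CM partner, and 13 of the 16 in all lay over the gene. The folds of the 15 began at 2.21 and were all below that at the start.

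Alox5ap, which encodes the protein that presents arachidonic acid to Alox5, had a CM peak of 3078 bp that began 45 bases inside the lower end of the gene (chromosome 5, 149265004 to 149288153; fold 5.63, −log10 q 5.23). This was the longest CM peak at a member's own gene, longer than 93.2% of the CM list. The romidepsin peak over it was 7527 bp long and reached from −1926 to +5600 relative to that end (fold 3.69, −log10 q 5.58). Inside the gene, a romidepsin peak of 1176 bp with no CM partner (149274470 to 149275645) had a slightly higher fold of 3.74.

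Ltc4s, the leukotriene C synthase gene, is only 2072 bp long (chromosome 11, 50236461 to 50238532, minus strand). It lay inside a romidepsin peak of 43695 bp (50198945 to 50242639, fold 3.97, −log10 q 6.48), longer than 99.98% of that list, which also covered Mgat4b, Mrnip and Sqstm1 and joined 5 CM peaks. The CM peak at Ltc4s itself was 1179 bp long (50236350 to 50237528, fold 4.47, −log10 q 3.09). It lay from +1004 to +2182, thus just outside the start window of 1 kb, over the downstream part of the gene and just past its end. The other 2 CM peaks in the window lay at Mgat4b. The long romidepsin peak covered 4 protein-coding genes and the RNA genes Gm36556 and Mir6919 and cannot be assigned to Ltc4s.

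Alox15, the lipoxygenase of macrophages and eosinophils that oxidises arachidonic and linoleic acid, was the member with romidepsin peaks alone (chromosome 11, 70344147 to 70390538). A window with a romidepsin peak and no CM peak was found for 13.4% of all genes. Its 12 romidepsin peaks were 314 to 3680 bp long with folds of 2.05 to 3.48, and 7 lay over the gene. The strongest pair lay inside the annotated span, at 70371364 to 70373538 (fold 3.48, −log10 q 4.78) and at 70373854 to 70377291 (fold 3.41, −log10 q 4.76). The nearest CM peak lay 18615 bp beyond the gene, at Pelp1 (fold 6.80).

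Over the 9 members with a CM peak of their own, within 1 kb of the gene span, the overlapping romidepsin peak was longer in each. The ratio of romidepsin to CM length was 2.11 at Ptges, 2.15 at Ptges2, 2.45 at Alox5ap, 4.25 at Pla2g4a, 4.96 at Ptges3, 5.62 at Alox5, 10.2 at Ptgs1, 12.7 at Ptgs2 and 37.1 at Ltc4s. The romidepsin peak at Ltc4s joined 5 CM peaks and also covered Mgat4b, Mrnip and Sqstm1, so its ratio cannot be assigned to Ltc4s. The median was 4.96, against 4.37 over all 16399 CM peaks with a romidepsin partner (interquartile range 2.82 to 8.84), and 5 of the 9 were above that median. The shortest CM peaks, at Ptgs2, Ptgs1 and Alox5, were among the 4 with the highest ratios. CM length is the divisor, so a short CM peak by itself raises the ratio. A CM peak inside a romidepsin peak cannot have a shorter partner. A member window held a romidepsin peak longer than 10 kb at Ptges2, Ptges3 and Ltc4s, that is 3 of 10 against 15.9% of all genes, and in CM at none of 10 against 0.0594%. At Ptges2 that peak lay over Lcn2 and not over the member.

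**Figure D4:**
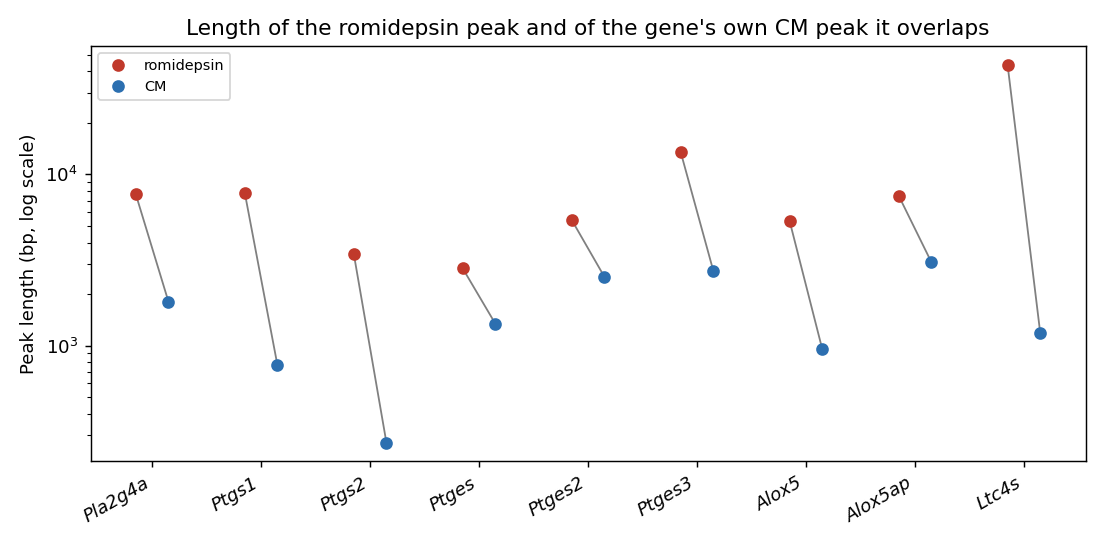
Length of the romidepsin peak (red, left of each pair) and of the CM peak it overlaps (blue, right), in bp on a log scale, for the 9 members with a CM peak of their own. Every red point lies above its blue point, from 2.11 times at Ptges to 37.1 times at Ltc4s. The romidepsin peak at Ltc4s joined 5 CM peaks and also covered neighbouring genes.

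Romidepsin peaks with no CM peak were mostly short and weak, with a median length of 920.5 bp and a median fold of 2.62 over the 80, against 7666 bp and 3.82 for the 11 that met a CM peak. Over the whole list the same medians were 806 bp and 2.58, and 4865.5 bp and 3.84. When the romidepsin list was reduced to the 16419 peaks with the highest −log10 q, as many as in CM, 20 peaks remained over the member windows and 9 of these met no CM peak. They lay at 5 members: 4 at Pla2g4a, 2 at Alox15 and 1 each at Ptgs1, Ptges and Alox5ap. The share without a CM peak was not computed over the whole reduced list, so these 9 have no background beside them. With these equal numbers the CM coverage of the joined windows was 3.82% as before, and the romidepsin coverage was 18.6%.

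The other genes of the pathway were taken from a list of 55 phospholipases, synthases, lipoxygenases, degrading enzymes, transporters and receptors, of which 43 have a listed start. A start peak was present in 29 of 43 (67.4%) with romidepsin and 19 of 43 (44.2%) in CM, against 63.1% and 51.4% of all genes. No gene had one in CM only, which was rare everywhere, at 1 of all 21262 starts. With romidepsin only, 10 of 43 (23.3%) had one, against 11.8% of all genes. Terminal synthases other than the members had a start peak in 6 of 7 genes with romidepsin and 5 of 7 in CM. Among these, Lta4h, which makes leukotriene B, had folds of 3.70 with romidepsin and 5.60 in CM, and Tbxas1, the thromboxane synthase, 4.16 and 5.56. Prostanoid receptors had one in 7 of 8 with romidepsin and 4 of 8 in CM. The highest start folds among the pathway genes lay at receptors of prostaglandin E, but at different ones with romidepsin and in CM. With romidepsin these were Ptger3 (4.88) and Ptger4 (4.28). In CM it was Ptger2 (6.90), followed by the lipoprotein-associated phospholipase gene Pla2g7 (6.24). Each of these receptors was below the all-gene median start fold in the opposite peak list. Ptger3 (4.42) and Ptger4 (4.85) were below 5.80 in CM, and Ptger2 (3.796) was below 3.86 with romidepsin. Ptger1 has no listed start and was not ranked. Leukotriene receptors had a start peak in 2 of 3 genes in both lists, namely Ltb4r1 and Cysltr2.

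Lipoxygenases other than the members had a start peak in 3 of 4 genes with romidepsin and in 0 of 4 in CM. These were Alox8, Alox12 and Alox12e. Their romidepsin folds were 2.60 at Alox8, 3.91 at Alox12 and 2.72 at Alox12e. The other 7 genes with a romidepsin start peak only were Hpgds, the haematopoietic prostaglandin D synthase (fold 3.01), Hpgd, which inactivates prostaglandins (2.97), Ggt1, which trims leukotriene C (3.79), the receptor genes Ptgdr2 (2.44), Ptgfr (2.66) and Tbxa2r (2.60), and the phospholipase gene Pla2g12a (2.80). Of these genes, Alox12, Ggt1 and Pla2g12a had a CM peak within 1 kb of an annotated gene end. Ptgdr2 and Tbxa2r had a CM peak elsewhere in the window. Degrading enzymes had a start peak in 5 of 6 genes with romidepsin and 3 of 6 in CM, and transporters in 1 of 2 in both. Other phospholipases and the phospholipase activator Plaa had one in 5 of 13 with romidepsin and 4 of 13 in CM. The 8 with none in either list were Pla2g2d, Pla2g2e, Pla2g2f, Pla2g4c, Pla2g4e, Pla2g4f, Pla2g5 and Pla2g10.

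Marker genes were read the same way to check the cell label. The background for each start count is 63.1% of all genes with romidepsin and 51.4% in CM. Of 12 myeloid markers 8 have a listed start, and all 8 had a start peak in both lists. The 4 others, Spi1, Csf1r, Cd14 and Tyrobp, had a peak within 1 kb of an annotated gene end in both. Over all genes 63.8% had such a gene end peak with romidepsin and 48.8% in CM. Neutrophil markers had a start peak in 7 of 8 genes with romidepsin (87.5%) and 3 of 8 in CM (37.5%, below the share of all genes). Of markers of other cells that make eicosanoids, mast cell and basophil genes had one in 1 of 7 with romidepsin and 0 of 7 in CM, eosinophil genes in 2 of 5 and 0 of 5, and megakaryocyte genes in 5 of 5 and 1 of 5. Lymphocyte markers had one in 2 of 5 with romidepsin and 0 of 5 in CM, and stromal and endothelial markers in 2 of 4 and 1 of 4. The romidepsin start peaks among the mast cell, basophil and eosinophil markers were those of Hdc (fold 2.78), Prg3 (3.01) and Siglecf (3.10). The others with a listed start, Cma1, Cpa3, Fcer1a, Mcpt4, Mcpt8, Ms4a2, Ear6, Epx and Il5ra, had none in either list. The part of other cells in the member peaks was not tested.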

How the data were processed

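H3K9ac ChIP-seq peak lists of 2 immunoprecipitated libraries, 1 per condition, were used. The 2 input samples were not analysed here. Per the submitters' processing notes, reads were handled with Bowtie2 (version 2.4.4), MACS2 (2.2.7.1) and deepTools (3.5.1) on mm10. Settings and control use are not given in the sources used here. Per the labels' protocols, sequencing was single-end with reads of 75 bp. The authors' deposited lists give, for each broad peak, a score, a fold enrichment (a ratio), a −log10 p-value and a −log10 q-value, averaged over the peak. Fold and −log10 q were used to describe and rank peaks within a list. Depth is unknown.

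Positions were written with a first base numbered 1. Gene spans came from RefSeq (GRCm38.p6) and starts from its promoter table. A peak counted where it overlapped a window by at least 1 bp. Overlap counting was tested on simulated data. Neighbouring genes and all members were named, and pathway genes by highest start fold or a start peak in 1 list only. Genes named beyond this (Lta4h, Tbxas1, Ltb4r1, Cysltr2, and phospholipases and markers by start peak) were chosen after their values were seen. The members and lists were chosen with earlier results of these data known. Python 3.11.15, numpy 2.4.6, pandas 2.3.3, scipy 1.17.1 and matplotlib 3.10.9 were used.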

Additional observations from a re-analysis of the deposited data

How the results depend on the processing

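No paired analysis was possible because each condition had 1 library and no test was run. Of 64 values recomputed under another setting, 33 counted as alike and 31 as moved. A count was alike within 1.5 times the reported one, and a coverage only within its counting interval over bases, which is narrow, so small shifts of coverage counted as moved. At a −log10 q of at least 10, which 0.151% of romidepsin peaks and 0.353% of CM peaks reached, every count and coverage over the members was 0 in both lists. At a −log10 q of at least 5, 13 romidepsin peaks (8 without a CM peak) and 5 CM peaks were left over the windows, covering 14.6% and 2.07%, with 4 members holding a CM window peak and 2, Ptges2 and Ptges3, a CM start peak. Romidepsin start peaks then numbered 6, without that of Ptgs1, and 9 members held a romidepsin window peak, without Alox15. At a fold of at least 3, 26 romidepsin peaks were left (15 without a CM peak), covering 21.9%. With equal numbers of strongest peaks there were 20 (9 without a CM peak), covering 18.6%. Merging peaks closer than 1 kb left 53 romidepsin peaks (43 without a CM peak), covering 38.8%, and CM coverage was 4.04%. For none of these settings was the share without a CM peak computed over the whole list. Gene spans alone were covered to 34.9% with romidepsin and 3.29% in CM and held 8 CM peaks. Spans plus 20 kb were covered to 34.7% and 4.27%. With start windows of 2.5 kb Ltc4s had a CM start peak. Taking annotated gene ends, an alternative chosen after seeing the data, gave 10 of 10 members with romidepsin (63.8% of all genes) and 7 of 10 in CM (48.8%). Coverage was recomputed for the −log10 q, fold, equal-number, merging, span and 20 kb settings, and that with romidepsin exceeded that in CM in these other than the −log10 q of at least 10.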

Other observations

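Gaps between neighbouring romidepsin peaks were short at several members. At Alox5, 9 of the 15 gaps were under 1 kb, with a median of 701 bp, at Alox5ap 5 of 7 (median 786 bp), and at Pla2g4a 10 of 21 (median 1472 bp). At Ptges 2 of 10 gaps were under 1 kb (median 2064 bp). A count of romidepsin peaks per gene thus depends on where the peak caller split a stretch.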
